A study of Mus musculus with 8 samples.

Results

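Activated mouse CD8+ T cells kept with the compound EnPGC-1 were compared with the same kind of cells kept with Ctrl PIP, which its name marks as a control compound, across all genes expressed. The comparison used 4 of the 8 RNA-seq libraries of the study, the 2 labelled EnPGC-1 (replicates 1 and 2) and the 2 labelled Ctrl PIP (replicates 1 and 2), chosen by those labels alone. All were primary CD8+ T cells of C57BL/6 mice, taken from lymph node and spleen, stimulated through the T cell receptor with antibodies against CD3 and CD28 and treated for 48 hours. The other 4 libraries, 2 with the vehicle DMSO and 2 with SGC-CBP30, entered the statistical fit, and DMSO levels are given as background. The sources used here give neither the doses nor the age and sex of the mice, so the pair of compounds could not be matched by dose. Nor do the labels tie the replicates to separate mice or cultures, and p-values then measure only the spread between these libraries.

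CD8+ T cells are cytotoxic lymphocytes, which kill cells that carry a virus or have become cancerous. Stimulation through the T cell receptor and CD28 drives a resting cell to grow: it takes up iron, glucose and amino acids, makes ribosomes, nucleotides and lipids, copies its DNA and divides, while genes of the resting state such as Klf2 are turned down. PGC-1α, the product of Ppargc1a, is a transcriptional coactivator that promotes the formation of mitochondria and the burning of fatty acids, and the study concerns the epigenetic induction of mitochondria in T cells. The comparison with Ctrl PIP asks how the transcripts of cells given EnPGC-1 differ from those of cells given the control compound.

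Total counts were 38890043 and 55491261 in the EnPGC-1 libraries and 50545906 and 50734398 in the Ctrl PIP libraries. Markers of CD8+ T cells were present in every library, with Cd8a at 1189 and 1241 CPM with EnPGC-1 and 927 and 904 CPM with Ctrl PIP (CPM, the counts of a gene relative to the library's total, scaled by TMM) and Cd3e at 328 and 429 against 399 and 354 CPM. The EnPGC-1 replicates lay further apart than the Ctrl PIP replicates. The median absolute log2 difference over all genes was 0.560 between the EnPGC-1 replicates and 0.197 between the Ctrl PIP replicates. EnPGC-1 replicate 1 differed from the Ctrl PIP libraries by medians of 0.635 and 0.532, and EnPGC-1 replicate 2 by 0.276 and 0.336. Differences from EnPGC-1 replicate 1 also followed transcript length, with Spearman's rho of 0.51 and 0.44 across the 9299 genes of known length with a mean log2 CPM over 3 (a description, since genes are not independent replicates), whereas rho was -0.02 and -0.28 for EnPGC-1 replicate 2. For Ctrl PIP replicate 2 against replicate 1 it was 0.47. The plot of list medians therefore gives every pathway list in both EnPGC-1 libraries, and the part of transcript length in the results was not tested beyond the alternative fit with a length offset.

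Of 16750 genes tested, 0 were higher and 0 lower at an adjusted p under 0.05 by edgeR's quasi-likelihood test, the smallest adjusted p being 0.812. At an unadjusted p under 0.05 edgeR found 286 genes higher with EnPGC-1 (1.71% of those tested) and 464 lower (2.77%), 750 in all or 4.48%, where 838 would be expected with no difference. These counts ranged from 87, without Ctrl PIP replicate 2, to 872, without DMSO replicate 2, for genes higher, and from 109, without Ctrl PIP replicate 2, to 1084, without DMSO replicate 1, for genes lower. DESeq2's Wald test called 13 genes higher (0.0776%) and 36 lower (0.215%) at an adjusted p under 0.05; 5 of the 13 and 1 of the 36 had counts in only 1 of the 4 libraries. Both EnPGC-1 libraries lay above both Ctrl PIP libraries in 3464 genes (20.7%) and below them in 3641 (21.7%), and 9645 genes overlapped. The median log2 fold change of all genes was 0.05, with 7687 genes below 0 (45.9%) and 9056 above 0 (54.1%).

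The genes at an unadjusted p under 0.05 differed in abundance by direction. Among the 2168 genes with a mean over 100 CPM, 106 were lower and 12 higher, and among the 4080 genes under 1 CPM, 42 were lower and 86 higher. The median level was 37.9 CPM for the genes lower, 4.32 CPM for the genes higher and 14.1 CPM for all genes. The 95% interval of a log2 fold change reached a median of 0.999 to each side. By level, this median was 2.66 for genes under 1 CPM, 1.16 from 1 to 10 CPM, 0.674 from 10 to 100 CPM and 0.689 over 100 CPM.

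**Figure D1:**
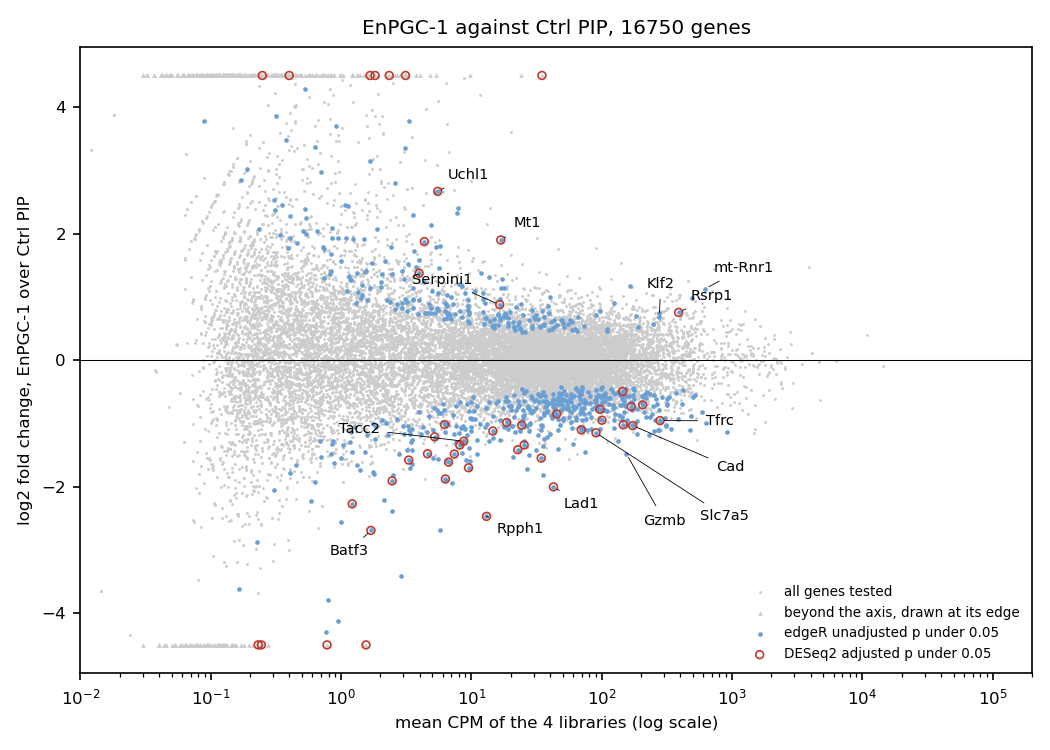
Log2 fold change of EnPGC-1 over Ctrl PIP (vertical axis) against the mean CPM of the 4 libraries (horizontal axis, log scale), 1 point per gene of the 16750 tested. Blue points are the 286 genes higher and 464 lower at an unadjusted edgeR p under 0.05, and red circles the 13 and 36 that DESeq2 called; blue points above 100 CPM lie mostly below 0.

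The genes with the smallest p among those lower with EnPGC-1 include genes of the cytoskeleton, cytokine signalling and amino acid metabolism. None passed edgeR's adjusted threshold, and DESeq2 called all 12 that the rule on p chose, of which 10 are given here as values. Of all genes DESeq2 called 0.215% lower. The 12 were chosen by p from the same counts, so these calls are not separate support. Tacc2, a coiled-coil protein of the centrosome and microtubules (Entrez gene 57752, chromosome 7, 130553009 to 130767705 on GRCm38.p6), measured 4.83 and 5.35 CPM with EnPGC-1 and 11.7 and 13.05 CPM with Ctrl PIP. Its log2 fold change was -1.28 ± 0.23 (SE), with an unadjusted edgeR p of 0.000979 and a DESeq2 adjusted p of 0.000120. Both DMSO libraries, at 8.11 and 9.17 CPM, lay between the 2 groups. Lad1, which encodes the anchoring-filament protein ladinin (Entrez gene 16763, chromosome 1, 135818598 to 135833341), measured 12.8 and 21.2 CPM with EnPGC-1 and 58.4 and 77.9 CPM with Ctrl PIP, a log2 fold change of -2.003 ± 0.37. The EnPGC-1 libraries were the lowest of the 6 with DMSO, at 32.2 and 55.2 CPM, included. Septin11, a cytoskeletal GTPase, was alike in the EnPGC-1 replicates at 68.05 and 68.9 CPM, and measured 124 and 140.3 CPM with Ctrl PIP (-0.95 ± 0.18 on the log2 scale). Coro2a, an actin-binding coronin, measured 32.8 and 31.6 CPM with EnPGC-1 and 54.99 and 61.1 CPM with Ctrl PIP (-0.85 ± 0.18).

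A ligand gene was also among them. Tnfsf11, which encodes the cytokine RANKL, measured 2.94 and 3.64 CPM with EnPGC-1 and 8.90 and 11.2 CPM with Ctrl PIP, a log2 fold change of -1.61 ± 0.31. DESeq2 also called the PD-1 ligand gene Pdcd1lg2 (1.24 and 0.836 CPM with EnPGC-1 and 3.46 and 4.32 CPM with Ctrl PIP), the Src-family kinase gene Fgr (1.51 and 1.80 CPM with EnPGC-1 and 4.46 and 5.43 CPM with Ctrl PIP) and the transcription factor gene Npas4 (3.16 and 3.14 CPM with EnPGC-1 and 7.40 and 7.19 CPM with Ctrl PIP). The AP-1 family gene Batf3, the integrin gene Itgb1 and the arginine methyltransferase gene Prmt5, named after their values were seen, were lower by DESeq2 with adjusted p of 0.00356, 0.0295 and 0.00913. Batf3 measured 0.267 and 0.631 CPM with EnPGC-1 and 2.42 and 3.45 CPM with Ctrl PIP. Itgb1 measured 152 and 161 CPM with EnPGC-1 and 253 and 257 CPM with Ctrl PIP, and Prmt5 72.2 and 70.6 CPM with EnPGC-1 and 115 and 129.5 CPM with Ctrl PIP.

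Metabolic genes made up most of the rest. Slc7a5, the large neutral amino acid transporter induced on T cell activation, measured 64.9 and 47.4 CPM with EnPGC-1 and 109 and 139.6 CPM with Ctrl PIP, a log2 fold change of -1.15 ± 0.24. Bcat1, the cytosolic aminotransferase of branched-chain amino acids, measured 16.7 and 12.1 CPM with EnPGC-1 and 33.1 and 39.6 CPM with Ctrl PIP (-1.34 ± 0.28). Gcat, a mitochondrial enzyme that turns a threonine product into glycine, measured 3.55 and 5.38 CPM with EnPGC-1 and 12.6 and 16.5 CPM with Ctrl PIP (-1.70 ± 0.36). All 3 were lower in each EnPGC-1 library than in each Ctrl PIP and DMSO library, which the rule required for Ctrl PIP only.

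An RNA subunit and a protein subunit of ribonuclease P, which trims the ends of transfer RNA precursors, were both among these 12 genes. Rpph1, the RNA subunit, measured 3.91 and 4.07 CPM with EnPGC-1 and 13.5 and 30.7 CPM with Ctrl PIP (-2.47 ± 0.49). It carries no poly(A) tail and the libraries were made with a poly(A) kit, and the part of that selection in its counts was not tested. Pop1, the protein subunit, measured 17.7 and 14.4 CPM with EnPGC-1 and 31.2 and 34.1 CPM with Ctrl PIP (-1.03 ± 0.21). Other large differences by the same rule on levels and separation were in Hk2, Tspan4, Tspan9, Wnt10a, Ccr4 and the pseudogene Rplp2-ps1, whose log2 fold changes were -1.82, -1.94, -1.88, -2.68, -1.89 and -3.41. The counts of Rplp2-ps1 are uncertain because it shares sequence with a ribosomal protein gene.

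**Figure D2:**
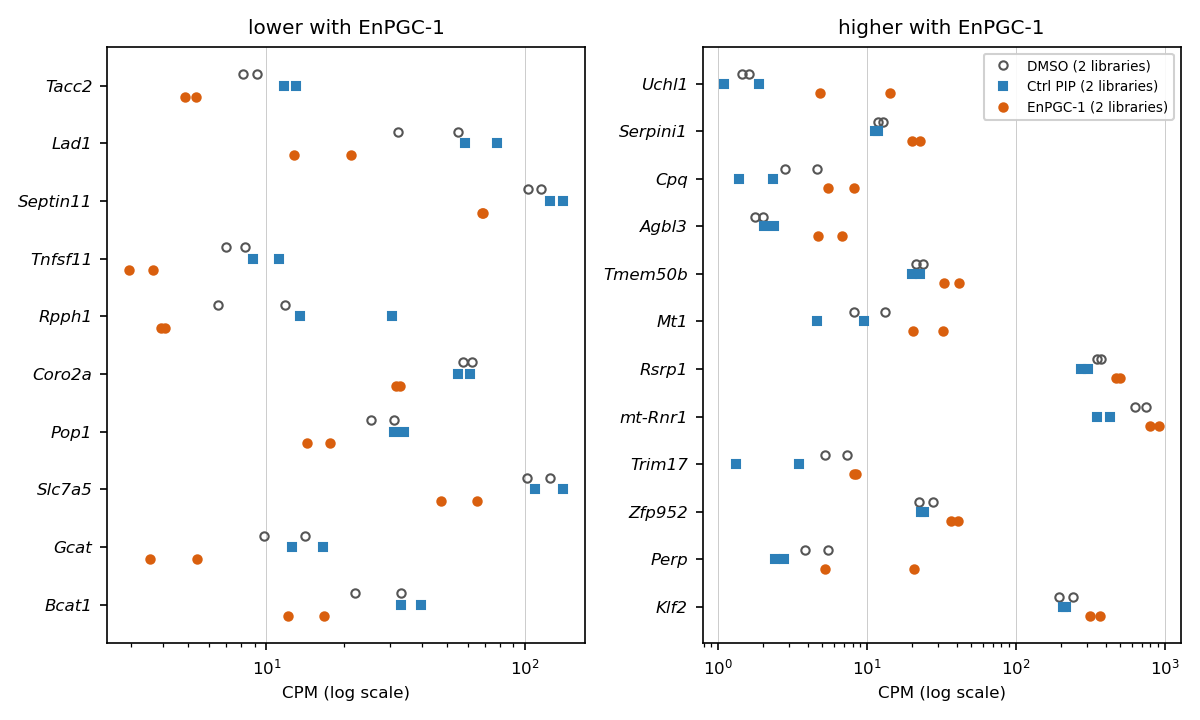
Level of 10 of the 12 genes lower (left) and the 12 genes higher (right) with the smallest edgeR p that met the rule on level and separation, in CPM on a log scale. Each point is 1 library, orange for EnPGC-1, blue squares for Ctrl PIP and open circles for DMSO; in every gene shown the EnPGC-1 pair and the Ctrl PIP pair do not overlap, as the rule required.

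Among genes higher with EnPGC-1, the smallest p values belonged to Uchl1 and Serpini1. Uchl1, a ubiquitin hydrolase best known in neurons (Entrez gene 22223, chromosome 5, 66676121 to 66687234), measured 14.2 and 4.81 CPM with EnPGC-1 and 1.10 and 1.89 CPM with Ctrl PIP. Its log2 fold change was 2.67 ± 0.60, with a DESeq2 adjusted p of 0.0133, and EnPGC-1 replicate 1 was the higher of the pair. Serpini1, which encodes the protease inhibitor neuroserpin (Entrez gene 20713, chromosome 3, 75557493 to 75642523), measured 19.9 and 22.7 CPM with EnPGC-1 and 11.9 and 11.3 CPM with Ctrl PIP (0.88 ± 0.20, DESeq2 adjusted p 0.00519). Its DMSO levels of 12.8 and 11.8 CPM lay with Ctrl PIP. Rsrp1, an arginine and serine rich protein, measured 473 and 504 CPM with EnPGC-1 and 306 and 272 CPM with Ctrl PIP (0.76 ± 0.20, DESeq2 adjusted p 0.00306), and 370.04 and 349 CPM with DMSO. Both EnPGC-1 libraries were thus above all DMSO and Ctrl PIP libraries in these 3 genes, which the rule required for Ctrl PIP only.

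Mt1, a metal-binding metallothionein, measured 20.4 and 32.5 CPM with EnPGC-1 and 9.60 and 4.59 CPM with Ctrl PIP (1.90 ± 0.48). The peptidase genes Cpq and Agbl3 measured 5.46 and 8.21 CPM against 2.34 and 1.39, and 6.75 and 4.70 CPM against 2.04 and 2.37. DESeq2 called Mt1, Cpq and Agbl3 at adjusted p of 0.0498, 0.0235 and 0.0330. Tmem50b, Trim17 and Zfp952 had log2 fold changes of 0.80 ± 0.20, 1.78 ± 0.48 and 0.71 ± 0.19 and no DESeq2 call. The mitochondrial 12S ribosomal RNA, mt-Rnr1, measured 911 and 799 CPM with EnPGC-1 and 431 and 349.6 CPM with Ctrl PIP (1.13 ± 0.30), and its DMSO levels of 744 and 632 CPM lay between the groups. Perp, a p53 target of cell junctions, measured 20.7 and 5.22 CPM with EnPGC-1 and 2.40 and 2.77 CPM with Ctrl PIP (2.32 ± 0.66), most of it in EnPGC-1 replicate 1. Ppfibp2 and Chd5 had 49 and 22, and 18 and 30, counts with EnPGC-1 and 0 in both Ctrl PIP libraries. Against a floor of 3 counts per library their mean levels were at least 13.6-fold and at least 8.44-fold higher. Both were present with DMSO, at 0.357 and 0.217 and 0.285 and 0.257 CPM.

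A mixed list of ribosome biogenesis genes and targets of MYC, the transcription factor of growth, was lower in both EnPGC-1 libraries. All 37 members had a log2 fold change below 0, where 45.9% of all genes did, and their median was -0.81. Some members belong to other processes, among them Cad, Srm, Cdk4, Ldha and Nme1. The medians in the 4 pairs of libraries were -0.64 and -0.76 for EnPGC-1 replicate 1 and -0.85 and -0.92 for replicate 2. In 34 of 37 both EnPGC-1 libraries were below both Ctrl PIP libraries (21.7% of all genes), and 15 were lower at an unadjusted p under 0.05 (2.77% of all genes). Without EnPGC-1 replicate 1, 37 of 37 were below 0 with a median of -0.89. The summed level was 5053 and 7338 CPM in the EnPGC-1 libraries, 10548 and 10622 in Ctrl PIP and 6318 and 13649 in DMSO, so that DMSO replicate 1 lay with EnPGC-1 and DMSO replicate 2 above Ctrl PIP.

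Cad, the enzyme of the first steps of pyrimidine synthesis and a MYC target, measured 134 and 92.9 CPM with EnPGC-1 and 208 and 257 CPM with Ctrl PIP (-1.03 ± 0.24, DESeq2 adjusted p 0.0462). Noc4l, a factor of small-subunit assembly in the nucleolus, measured 48.2 and 49.6 CPM with EnPGC-1 and 77.3 and 97.7 CPM with Ctrl PIP (-0.84 ± 0.20). Srm, which makes the polyamine spermidine, measured 43.8 and 35.5 CPM with EnPGC-1 and 104 and 114 CPM with Ctrl PIP (-1.45 ± 0.38). Bop1, a factor of large-subunit maturation, measured 63.05 and 51.9 CPM with EnPGC-1 and 102 and 111 CPM with Ctrl PIP (-0.89 ± 0.24). In each of these the groups did not overlap, as the rule that chose them required.

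MYC binds the E box CACGTG. Its presence in the 250 bases upstream of a gene's start was searched in RefSeq promoters on GRCm38.p6, 1 strand being enough because the motif is its own reverse complement. It was present in 12.9% of the 31 list members with a promoter in the table (4 genes), 9.25% of the genes tested with one and 6.86% of all 27025 genes with one. The 4 named genes above that the rule chose gave none to show: Cad and Noc4l did not have these letters in that window, and Srm and Bop1 were not matched. The sequences shown are therefore from the 4 members that hold the motif, with the motif in capitals. The match is a description and not a binding site.
Nop2 (chr6:125131799-125131852, plus strand): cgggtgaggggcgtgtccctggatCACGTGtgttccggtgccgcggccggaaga
Cdk4 (chr10:127063339-127063392, plus strand): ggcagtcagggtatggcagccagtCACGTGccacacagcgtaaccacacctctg
Ldha (chr7:46845635-46845688, plus strand): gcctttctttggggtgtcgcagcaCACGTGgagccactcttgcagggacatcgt
Nme1 (chr11:93968273-93968314, minus strand): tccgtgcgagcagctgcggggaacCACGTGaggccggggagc
The motif in capitals begins 60, 172, 145 and 18 bases upstream of the start in the order shown. Cdk4 held 4 copies and Ldha 2 in this window, and the copy farthest upstream is shown. A second Nme1 promoter, not shown, held the motif 29 bases upstream of its start. Nop2, a ribosomal RNA methyltransferase, measured 50.4 and 39.1 CPM with EnPGC-1 and 80.5 and 85.5 CPM with Ctrl PIP. Nme1, a nucleoside diphosphate kinase, measured 53.5 and 96.5 CPM with EnPGC-1 and 177 and 176 CPM with Ctrl PIP. Cdk4, the kinase of the G1 phase, measured 130.5 and 212 CPM with EnPGC-1 and 304 and 284 CPM with Ctrl PIP, and Ldha, the enzyme that makes lactate, measured 523 and 1314 CPM with EnPGC-1 and 2333 and 1769 CPM with Ctrl PIP. In all 4 the EnPGC-1 libraries were below the Ctrl PIP libraries, as in 34 of the 37 list members and 21.7% of all genes. Log2 fold changes were -0.89 ± 0.26 for Nop2, -1.23 ± 0.60 for Nme1, -0.78 ± 0.42 for Cdk4 and -1.16 ± 0.70 for Ldha. Their unadjusted edgeR p were 0.0114, 0.0828, 0.110 and 0.145 in that order. For Nop2 the EnPGC-1 replicates were near each other, while for Ldha replicate 1 was much the lower.

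Enzymes that make nucleotides followed the same direction. In purine and pyrimidine synthesis 22 of 23 genes were below 0 (median -0.67), 20 lay below Ctrl PIP without overlap (21.7% of all genes) and 10 were lower at an unadjusted p under 0.05 (2.77% of all genes). The medians were -0.63 and -0.85 for EnPGC-1 replicate 1 and -0.52 and -0.52 for replicate 2. Summed over the list, the EnPGC-1 libraries reached 1829 and 2357 CPM, and the Ctrl PIP libraries 3185 and 3236 CPM. DMSO replicate 1, at 2201 CPM, fell between the EnPGC-1 libraries, and DMSO replicate 2, at 3655 CPM, above both Ctrl PIP libraries. The cause of this gap between the DMSO libraries was not tested. Gart, which catalyses several steps of purine synthesis, measured 100.2 and 92.6 CPM with EnPGC-1 and 182 and 209 CPM with Ctrl PIP (-1.02 ± 0.23, DESeq2 adjusted p 0.0298). Pfas and Atic, earlier and later enzymes of the same pathway, had log2 fold changes of -0.66 ± 0.19 and -0.94 ± 0.29. Ctps2, a CTP synthase, was the 1 member above 0, at 0.31 ± 0.18.

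The serine, folate and one-carbon pathway supplies carbon for purines and thymidine. 16 of its 19 genes were below 0 (median -0.79; -1.05 and -1.10 for EnPGC-1 replicate 1, -0.54 and -0.55 for replicate 2). At an unadjusted p under 0.05, 5 were lower (2.77% of all genes) and 1 was higher (1.71% of all genes). The list summed to 1054 and 1339 CPM in the EnPGC-1 libraries, and the Ctrl PIP sums were 2028 and 2109 CPM. Here too DMSO replicate 1 (1310 CPM) fell between the EnPGC-1 libraries and DMSO replicate 2 (2294 CPM) above Ctrl PIP. Shmt1, the cytosolic serine hydroxymethyltransferase, measured 18.97 and 16.005 CPM with EnPGC-1 and 46.7 and 55.5 CPM with Ctrl PIP (-1.55 ± 0.35, DESeq2 adjusted p 0.0338). Shmt2, the mitochondrial form, measured 113 and 116 CPM with EnPGC-1 and 239.9 and 272 CPM with Ctrl PIP (-1.16 ± 0.31), and Mthfd1, the cytosolic folate enzyme, 68.2 and 56.4 CPM with EnPGC-1 and 120.2 and 145 CPM with Ctrl PIP (-1.09 ± 0.26). Sfxn1, a mitochondrial serine carrier, had a log2 fold change of -0.73 ± 0.27. Amt, a subunit of the glycine cleavage system, lay the other way at 6.12 and 7.78 CPM with EnPGC-1 and 3.72 and 4.14 CPM with Ctrl PIP (0.82 ± 0.28).

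Of the aminoacyl-tRNA synthetases, 19 of 20 were below 0 (median -0.51; -0.51 and -0.56 for EnPGC-1 replicate 1, -0.41 and -0.43 for replicate 2). Of these genes 17 lay below Ctrl PIP without overlap (21.7% of all genes) and 4 were lower at an unadjusted p under 0.05 (2.77% of all genes). Those 4 were Mars1, Eprs, Farsb and Yars, with log2 fold changes of -0.77, -0.57, -0.68 and -0.57. Wars, the tryptophan synthetase and an interferon-induced gene, lay the other way, at 164 and 216 CPM with EnPGC-1 and 145 and 134 CPM with Ctrl PIP (0.44 ± 0.21). Its EnPGC-1 libraries were above both Ctrl PIP libraries, as the rule that chose it required. Over the whole synthetase list the EnPGC-1 sums were 2157 and 2560 CPM, and the Ctrl PIP sums 3072 and 3118 CPM. DMSO replicate 1 (2551 CPM) fell between the EnPGC-1 libraries and DMSO replicate 2 (3400 CPM) above Ctrl PIP.

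Cholesterol synthesis had 24 of 25 genes below 0 (median -0.53; -0.91 and -0.72 for EnPGC-1 replicate 1, -0.52 and -0.27 for replicate 2) and 6 lower at an unadjusted p under 0.05 (2.77% of all genes). Its EnPGC-1 sums were 925 and 1150 CPM, and its Ctrl PIP sums 1652 and 1515 CPM. DMSO replicate 1 (1252 CPM) lay between the groups and DMSO replicate 2 (2088 CPM) above both. The epoxidase gene Sqle measured 27.7 and 29.6 CPM with EnPGC-1 and 57.2 and 50.4 CPM with Ctrl PIP (-0.91 ± 0.32) and Hmgcs1, an early enzyme, 60.7 and 89.96 CPM with EnPGC-1 and 133 and 128 CPM with Ctrl PIP (-0.79 ± 0.30). In fatty acid synthesis and desaturation 13 of 17 were below 0 (median -0.33; -0.43 and -0.24 for EnPGC-1 replicate 1, -0.34 and -0.19 for replicate 2). Fasn, the fatty acid synthase, measured 195 and 114 CPM with EnPGC-1 and 263 and 309.6 CPM with Ctrl PIP (-0.89 ± 0.30), and Acaca, which supplies its malonyl units, 49.1 and 33.9 CPM with EnPGC-1 and 65.1 and 72.7 CPM with Ctrl PIP (-0.73 ± 0.24). Both were lowest in EnPGC-1 replicate 2. Acss2, which makes acetyl-CoA from acetate, lay the other way at 69.9 and 44.99 CPM with EnPGC-1 and 31.1 and 35.4 CPM with Ctrl PIP (0.79 ± 0.42).

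Of the activation and costimulation list 24 of 27 were below 0 (median -0.50; -0.80 and -0.69 for EnPGC-1 replicate 1, -0.49 and -0.21 for replicate 2). In 16 both EnPGC-1 libraries lay below both Ctrl PIP libraries (21.7% of all genes), and 6 were lower at an unadjusted p under 0.05 (2.77% of all genes). Without EnPGC-1 replicate 1 the count below 0 was 23, with a median of -0.41. The EnPGC-1 sums of this list were 2048 and 2465 CPM, and the Ctrl PIP sums 3125 and 2850 CPM. DMSO replicate 1 (2751 CPM) lay between the groups and DMSO replicate 2 (3340 CPM) above both. Tfrc, the transferrin receptor that brings in iron, measured 195 and 187 CPM with EnPGC-1 and 346 and 393 CPM with Ctrl PIP (-0.95 ± 0.21, DESeq2 adjusted p 0.00913). Irf4, a transcription factor graded with receptor signal, measured 24.6 and 38.7 CPM with EnPGC-1 and 68.4 and 60.1 CPM with Ctrl PIP (-1.02 ± 0.32). Il2ra, the inducible chain of the interleukin-2 receptor, measured 64.8 and 49.8 CPM with EnPGC-1 and 83.2 and 121 CPM with Ctrl PIP (-0.83 ± 0.30). DMSO levels of Il2ra, 132 and 84.3 CPM, were within the range of Ctrl PIP or above it.

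Effector molecules were divided, with 12 of 21 below 0 and a median of -0.22. It was -0.53 and -0.37 for EnPGC-1 replicate 1 and -0.32 and -0.07 for replicate 2. With the offset for transcript length and GC content the median was -0.06. Gzmb, the granzyme B protease of killing granules, measured 79.7 and 83.4 CPM with EnPGC-1 and 272 and 182 CPM with Ctrl PIP (-1.48 ± 0.40), against 219.9 and 490.4 CPM with DMSO. Gzma, granzyme A, lay the other way at 12.8 and 20.2 CPM with EnPGC-1 and 9.46 and 6.28 CPM with Ctrl PIP (1.07 ± 0.32). Each of these granzyme genes separated the groups, as the rule that chose them required, and they did so in opposite directions. Eomes, a T-box factor of cytotoxic cells, measured 48.4 and 40.05 CPM with EnPGC-1 and 69.9 and 68.5 CPM with Ctrl PIP (-0.65 ± 0.19), and Lta, lymphotoxin alpha, 12.5 and 17.2 CPM with EnPGC-1 and 22.4 and 42.5 CPM with Ctrl PIP (-1.13 ± 0.35). Tnf measured 3.64 and 6.37 CPM with EnPGC-1 and 8.34 and 9.31 CPM with Ctrl PIP (-0.82 ± 0.40), with an interval that included 0.

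Of the cytokines and chemokines 11 of 18 were below 0, with a median of -0.35. It was -0.23 and -0.36 for EnPGC-1 replicate 1 and -0.58 and -0.80 for replicate 2. With the offset for transcript length and GC content the median was -0.08, with 9 below and 9 above 0. Without Ctrl PIP replicate 1 these values were the same. Tnfsf14, which encodes the ligand LIGHT, measured 2.94 and 4.88 CPM with EnPGC-1 and 8.40 and 8.71 CPM with Ctrl PIP (-1.13 ± 0.36). Ccl4 and Ccl5, both CC chemokines, had log2 fold changes of -0.85 ± 0.36 and -0.37 ± 0.26, and Tnfsf8, the CD30 ligand, 0.34 ± 0.37. Receptors of chemokines and cytokines had a median of 0.13 with 14 above and 11 below 0 (0.07 and 0.09 for EnPGC-1 replicate 1, -0.11 and 0.01 for replicate 2). The interferon gamma receptor genes Ifngr1 and Ifngr2 measured 524 and 519 CPM against 393 and 409.7 and 22.2 and 31.95 CPM against 16.6 and 20.003 (0.38 ± 0.33 and 0.56 ± 0.24). Il2rg, the shared chain of the interleukin-2 receptor family, measured 473 and 503 CPM with EnPGC-1 and 448 and 444 CPM with Ctrl PIP, with a 95% interval of -0.36 to 0.62 on the log2 scale.

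The list of quiescence, homing and memory genes had medians above 0 in both EnPGC-1 libraries, though not every member was higher in both. Of this list 23 of 25 were above 0, where 54.1% of all genes were, with a median of 0.49. Both EnPGC-1 libraries were above both Ctrl PIP libraries in 12 of 25 (20.7% of all genes), and 1 was higher at an unadjusted p under 0.05 (1.71%). The medians were 0.63 and 0.60 for EnPGC-1 replicate 1 and 0.38 and 0.37 for replicate 2. Without EnPGC-1 replicate 1, 17 of 25 were above 0. The EnPGC-1 sums of this list were 11271 and 9498 CPM, and the Ctrl PIP sums 7339 and 7600 CPM. DMSO replicate 1 (10286 CPM) fell between the EnPGC-1 libraries and DMSO replicate 2 (6195 CPM) below Ctrl PIP. Klf2, the factor that maintains T cell quiescence and lymphoid homing, measured 369 and 312 CPM with EnPGC-1 and 206 and 218 CPM with Ctrl PIP (0.68 ± 0.20), and 241 and 194 CPM with DMSO. S1pr1, a target of Klf2 that encodes the lymph node exit receptor, measured 568 and 329.9 CPM with EnPGC-1 and 204 and 229.7 CPM with Ctrl PIP (1.05 ± 0.53), and its DMSO replicates were far apart at 401 and 129 CPM. Slfn2, a quiescence factor, measured 358 and 394 CPM with EnPGC-1 and 281 and 275 CPM with Ctrl PIP (0.43 ± 0.20).

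Inhibitory receptors and exhaustion factors had 13 of 20 above 0 (median 0.24), but -0.27 without EnPGC-1 replicate 1, with 9 above 0. Ctla4 measured 359.6 and 389 CPM with EnPGC-1 and 299 and 237 CPM with Ctrl PIP (0.48 ± 0.25), Vsir, which encodes VISTA, 289.6 and 251 CPM with EnPGC-1 and 176 and 184 CPM with Ctrl PIP (0.59 ± 0.32), and Nt5e, the ectoenzyme CD73, 63.8 and 38.5 CPM with EnPGC-1 and 28.6 and 37.98 CPM with Ctrl PIP (0.62 ± 0.35). Cd160 lay the other way, at 15.1 and 22.4 CPM with EnPGC-1 and 40.7 and 33.8 CPM with Ctrl PIP (-0.99 ± 0.31).

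**Figure D3:**
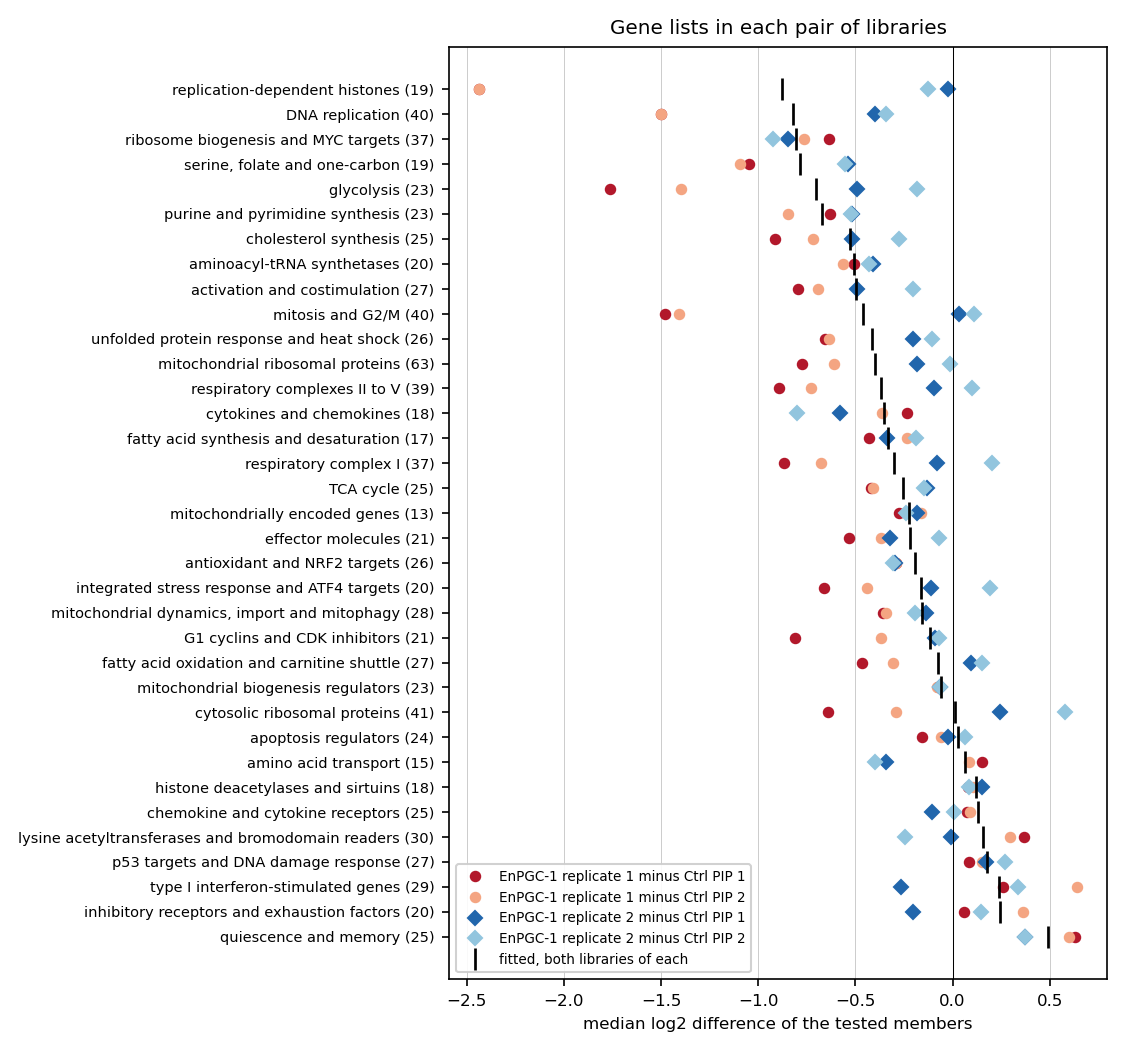
Median log2 difference of the tested members of each pathway list (number in brackets), for each EnPGC-1 library minus each Ctrl PIP library; red and orange circles are EnPGC-1 replicate 1, blue diamonds replicate 2, and black bars the fitted fold change. The list of ribosome biogenesis and MYC targets lies at -0.92 to -0.64 in all 4 pairs. Mitosis lies at -1.48 and -1.41 for replicate 1 and at 0.03 and 0.11 for replicate 2.

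Cell-cycle genes separated the EnPGC-1 replicates. In the DNA replication list 40 of 40 genes were below 0 (45.9% of all genes), with a median of -0.82, and 38 lay below Ctrl PIP without overlap (21.7% of all genes). The size depended on the library: medians were -1.50 and -1.50 for EnPGC-1 replicate 1 and -0.40 and -0.34 for replicate 2. Without EnPGC-1 replicate 1, 40 of 40 were below 0, with a median of -0.38. The EnPGC-1 sums of this list were 2486 and 4973 CPM, and the Ctrl PIP sums 6745 and 6730 CPM. DMSO replicate 1 (3731 CPM) fell between the EnPGC-1 libraries and DMSO replicate 2 (7523 CPM) above Ctrl PIP. Mcm2, a subunit of the replicative helicase, measured 99.1 and 127 CPM with EnPGC-1 and 225 and 234 CPM with Ctrl PIP (-1.02 ± 0.26), and its partner Mcm5 137 and 297 CPM with EnPGC-1 and 445 and 482 CPM with Ctrl PIP (-1.10 ± 0.42). Uhrf1, which keeps DNA methylation through replication, measured 108 and 208 CPM with EnPGC-1 and 329 and 358 CPM with Ctrl PIP (-1.12 ± 0.37), and Pole, the leading-strand polymerase, 51.1 and 82.6 CPM with EnPGC-1 and 110.2 and 120.4 CPM with Ctrl PIP (-0.79 ± 0.28).

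Mitosis and G2/M genes were lower in EnPGC-1 replicate 1 and near Ctrl PIP in replicate 2. Over both libraries 38 of 40 were below 0 (median -0.46), but without replicate 1 14 of 40 were, with a median of 0.06. The cyclin gene Ccnb1 measured 50.1 and 110.1 CPM with EnPGC-1 and 140.3 and 135 CPM with Ctrl PIP, and the mitotic kinase gene Plk1 46.7 and 124 CPM with EnPGC-1 and 141 and 139 CPM with Ctrl PIP. EnPGC-1 replicate 1 was the lowest of the 4 libraries in both, and replicate 2 was nearer to Ctrl PIP. Smc4, a condensin subunit, lay the other way at 1652 and 1220 CPM with EnPGC-1 and 946 and 996 CPM with Ctrl PIP (0.56 ± 0.40). The replication-dependent histones, whose messages lack a poly(A) tail and whose near-identical copies may share counts, summed to 9.86 and 40.2 CPM with EnPGC-1 and 42.8 and 41.2 CPM with Ctrl PIP. In the list of G1 cyclins and CDK inhibitors, E2f3, an activator of S-phase genes, measured 20.4 and 28.6 CPM with EnPGC-1 and 37.7 and 38.5 CPM with Ctrl PIP (-0.64 ± 0.25), and Cdkn1b, the inhibitor p27, 173 and 171 CPM with EnPGC-1 and 131 and 124 CPM with Ctrl PIP (0.44 ± 0.27).

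Glycolysis had 22 of 23 genes below 0 (median -0.70), with medians of -1.76 and -1.40 for EnPGC-1 replicate 1 and -0.49 and -0.18 for replicate 2. Without replicate 1, 17 of 23 were below 0 with a median of -0.36. Hk2, the inducible hexokinase that starts glycolysis, measured 12.8 and 18.2 CPM with EnPGC-1 and 59.4 and 50.3 CPM with Ctrl PIP (-1.82 ± 0.51), and was low in both EnPGC-1 libraries. Slc2a1, the glucose transporter GLUT1, measured 33.3 and 54.3 CPM with EnPGC-1 and 113 and 82.8 CPM with Ctrl PIP (-1.16 ± 0.56), and Pgam1 119.7 and 218 CPM with EnPGC-1 and 416 and 364 CPM with Ctrl PIP (-1.21 ± 0.55). With DMSO the replicates were far apart in all 3, at 24.2 and 73.6 CPM for Hk2, 39.6 and 133 for Slc2a1 and 161 and 504 for Pgam1. Cytosolic ribosomal protein genes, short transcripts with a median of 1151 bases, had a median of 0.01; 41 and 39 of 41 were below 0 for EnPGC-1 replicate 1 and 0 were for replicate 2.

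Nuclear genes of the mitochondrial machinery were lower in EnPGC-1 replicate 1 and nearer to Ctrl PIP in replicate 2. In respiratory complex I, the entry point of the electron transport chain, 36 of 37 genes were below 0 (median -0.30), with medians of -0.87 and -0.68 for EnPGC-1 replicate 1 and -0.08 and 0.20 for replicate 2. Without replicate 1, 18 of 37 were below 0 with a median of 0.002. Complexes II to V had a median of -0.37 (-0.90 and -0.73 for EnPGC-1 replicate 1, -0.10 and 0.10 for replicate 2). It was -0.03 without EnPGC-1 replicate 1. Mitochondrial ribosomal proteins had a median of -0.40 (-0.78 and -0.61 for EnPGC-1 replicate 1, -0.19 and -0.01 for replicate 2). Of these 63 genes 32 lay below Ctrl PIP without overlap (21.7% of all genes). Without EnPGC-1 replicate 1, 42 of the 63 were below 0, with a median of -0.12. An offset for transcript length and GC content moved these 3 medians to -0.12, -0.19 and -0.23. Cyc1, cytochrome c1 of complex III, measured 84.2 and 98.6 CPM with EnPGC-1 and 147 and 161 CPM with Ctrl PIP (-0.75 ± 0.29). Atp5g1, a subunit of ATP synthase, measured 50.3 and 62.5 CPM with EnPGC-1 and 106 and 109.98 CPM with Ctrl PIP (-0.93 ± 0.41), and Mrps18b, of the small mitochondrial ribosomal subunit, 22.2 and 20.1 CPM with EnPGC-1 and 36.6 and 38.1 CPM with Ctrl PIP (-0.82 ± 0.32). These 3 were below Ctrl PIP in both EnPGC-1 libraries, as the rule that chose them required.

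In a list of genes encoded in the mitochondrial genome 12 of 13 were below 0 (median -0.22, from -0.76 to 0.39). Their summed level was 26376 and 26268 CPM with EnPGC-1 and 26085 and 25857 CPM with Ctrl PIP. The ribosomal RNA mt-Rnr1 is encoded there too but is outside this list, and it was higher (1.13 ± 0.30). ND3, of complex I, measured 78.95 and 111 CPM with EnPGC-1 and 170.4 and 152 CPM with Ctrl PIP (-0.76 ± 0.37), and COX1, of complex IV and the 1 member above 0, 12854 and 11545 CPM with EnPGC-1 and 9059 and 9552 CPM with Ctrl PIP (0.39 ± 0.29). In the TCA cycle 22 of 25 were below 0 (median -0.25; -0.42 and -0.41 for EnPGC-1 replicate 1, -0.13 and -0.15 for replicate 2), among them Suclg2, a succinyl-CoA ligase subunit (-0.52 ± 0.19). Import genes included Tomm40, the outer-membrane channel, at 42.96 and 49.2 CPM with EnPGC-1 and 94.5 and 99.1 CPM with Ctrl PIP (-1.07 ± 0.31), and Timm23, the inner-membrane channel, at 52.2 and 50.9 CPM with EnPGC-1 and 82.7 and 83.6 CPM with Ctrl PIP (-0.69 ± 0.26). Pink1, the kinase that marks damaged mitochondria, lay the other way at 118 and 132 CPM with EnPGC-1 and 94.2 and 89.2 CPM with Ctrl PIP (0.45 ± 0.21).

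Fatty acid oxidation had a median of -0.07, and 18 of 27 genes were below 0; without EnPGC-1 replicate 1, 7 were, with a median of 0.18. Cpt1a, which commits long-chain fatty acids to the mitochondrion, measured 154 and 170.1 CPM with EnPGC-1 and 90.3 and 82.9 CPM with Ctrl PIP (0.90 ± 0.35, unadjusted edgeR p 0.0403). Both EnPGC-1 libraries were above Ctrl PIP, and DMSO was at 145 and 66.1 CPM. Acsl5, which activates fatty acids, measured 154 and 195 CPM with EnPGC-1 and 255 and 247 CPM with Ctrl PIP (-0.53 ± 0.28). Acadm, the medium-chain dehydrogenase, measured 44.3 and 46.6 CPM with EnPGC-1 and 45.8 and 45.6 CPM with Ctrl PIP, a log2 fold change of -0.01 with a 95% interval of -0.44 to 0.43; its sign turned with the scaling.

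Ppargc1a was rare. It had 74 and 10 counts in the EnPGC-1 libraries, 0 in both Ctrl PIP libraries, 14 and 0 in DMSO and 0 and 3 in SGC-CBP30. Against a floor of 3 counts per library in Ctrl PIP, EnPGC-1 replicate 1 at 1.80 CPM was at least 30.5-fold higher and replicate 2 at 0.186 CPM at least 3.15-fold higher. Ppargc1b, the second coactivator of the family, measured 32.5 and 10.04 CPM with EnPGC-1 and 11.8 and 15.6 CPM with Ctrl PIP (0.63 ± 0.63), and without EnPGC-1 replicate 1 its log2 fold change was -0.46. Pprc1, the third, measured 60.4 and 29.9 CPM with EnPGC-1 and 63.6 and 70.03 CPM with Ctrl PIP (-0.57 ± 0.33). The list of mitochondrial biogenesis regulators had a median of -0.06, with 15 of 23 below 0. Nrf1, a partner factor of PGC-1α, measured 67.9 and 61.3 CPM with EnPGC-1 and 64.8 and 66.5 CPM with Ctrl PIP, with a 95% interval of -0.43 to 0.38 on the log2 scale. Twnk, the mitochondrial DNA helicase, and Polrmt, the mitochondrial RNA polymerase, had log2 fold changes of -0.59 ± 0.26 and -0.35 ± 0.17.

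Ppargc1a was highest in EnPGC-1 replicate 1, where the summed markers of myeloid cells and of erythroid cells and platelets were also the highest of all libraries. The sums of basophil and mast cell genes and of neutrophil granule and myeloid progenitor genes were highest there too. Those lists were chosen after the values were seen, so their order is no separate evidence. A search made after the values were seen found 74 genes at 5 CPM or more in EnPGC-1 replicate 1 and at least 8 times as high there as in the other 3 libraries, against 3 such genes for EnPGC-1 replicate 2 and 1 for each Ctrl PIP replicate. In all 74 DMSO replicate 1 exceeded DMSO replicate 2, with median levels of 2.92 and 0.0593 CPM. They included Mpo (44.3 and 0 CPM with EnPGC-1), a peroxidase of neutrophil granules, Pf4 (23.97 and 0.538 CPM), of platelets, and Cpa3, Prss34 and Mcpt8, proteases of mast cells and basophils (20.8 and 0.297, 20.2 and 0.130 and 12.5 and 0.427 CPM). A list of 12 basophil and mast cell genes, also chosen after their values were seen, summed to 128 and 20.6 CPM in the EnPGC-1 libraries. The sums were 11.4 and 16.5 CPM in Ctrl PIP and 46.3 and 6.08 in DMSO. Kit alone was 42.96 and 17.6 CPM of these sums with EnPGC-1 and 8.06 and 11.1 CPM with Ctrl PIP. Not every member was high there: Cma1, Mcpt4, Tpsb2 and Tpsab1 measured 0, 0.219, 1.02 and 0 CPM in EnPGC-1 replicate 1. Tpsb2 was at 0 CPM in EnPGC-1 replicate 2 and in both Ctrl PIP libraries. A list of 7 neutrophil granule and myeloid progenitor genes, chosen in the same way, summed to 76.1 and 0.297 CPM with EnPGC-1. Its sums were 1.38 and 3.01 CPM in Ctrl PIP and 13.98 and 0.0593 CPM in DMSO. In bulk RNA, more cells of a type and more RNA per cell cannot be told apart, and the part of these cells in the Ppargc1a counts was not tested.

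Rhox5, Timd2 and Trap1a, 3 of the 13 genes DESeq2 called higher, belonged to these 74. They measured 12.5, 9.35 and 7.29 CPM in EnPGC-1 replicate 1, and had 0 counts in replicate 2 and in both Ctrl PIP libraries. S1pr5, a sphingosine-1-phosphate receptor, and Syt13, a synaptotagmin, showed the same order, at 10.98 and 0.204 and 9.98 and 0.186 CPM with EnPGC-1 against 0.0800 and 0 and 0.160 and 0 CPM with Ctrl PIP. Syk, a kinase of B and myeloid cells, and Wdfy4, a dendritic cell gene, measured 15.8 and 2.80 CPM against 1.40 and 1.52 and 9.33 and 2.43 CPM against 1.34 and 1.06.

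**Figure D4:**
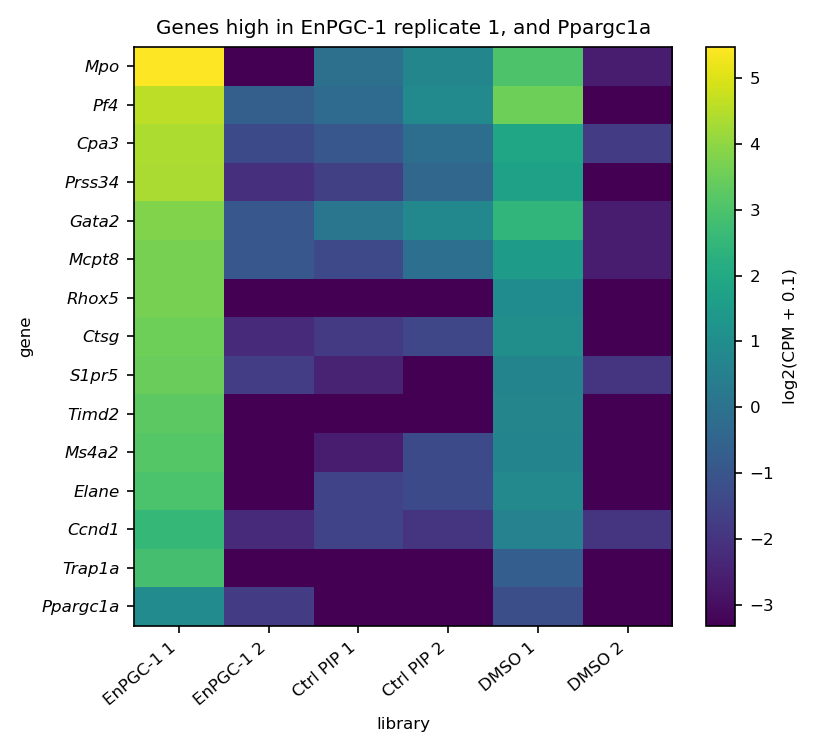
Level of 14 genes chosen for being high in EnPGC-1 replicate 1, and of Ppargc1a (rows), in 6 libraries (columns), coloured by log2(CPM + 0.1). EnPGC-1 replicate 1 is the brightest column and DMSO replicate 1 the next, and Ppargc1a has 74 and 14 counts in those libraries.

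Markers of other lymphocytes were also measured. B cell genes were above 0 in 22 of 22 (54.1% of all genes), and 15 lay above Ctrl PIP without overlap (20.7% of all genes). Their median log2 fold change was 1.34, from 0.62 without EnPGC-1 replicate 1 to 2.17 without Ctrl PIP replicate 1. Their summed level was 1016 and 1010 CPM in the EnPGC-1 libraries, 824 and 752 in Ctrl PIP and 1204 and 823 in DMSO. Cd79a, of the B cell receptor, measured 9.33 and 7.11 CPM with EnPGC-1 and 3.60 and 0.906 CPM with Ctrl PIP (1.87 ± 0.81), and H2-Aa, of MHC class II, 16.2 and 7.28 CPM with EnPGC-1 and 5.64 and 1.85 CPM with Ctrl PIP (1.65 ± 0.70). In both the lowest library was Ctrl PIP replicate 2. NK cell genes were below 0 in 10 of 13, and summed to 296 and 368 CPM with EnPGC-1 and 348 and 250.1 with Ctrl PIP, so that EnPGC-1 replicate 1 was not the highest. Klra7, a Ly49 receptor whose near-identical relatives may share its counts, measured 1.65 and 4.85 CPM with EnPGC-1 and 9.54 and 10.2 CPM with Ctrl PIP (-1.60 ± 0.58), while Klrd1, which encodes CD94, lay the other way at 202 and 250.3 CPM with EnPGC-1 and 161 and 119 CPM with Ctrl PIP (0.69 ± 0.26). Myeloid and dendritic markers summed to 42.1 and 13.9 CPM with EnPGC-1 and 17.8 and 16.3 with Ctrl PIP, and erythroid and platelet markers to 90.4 and 24.5 and 15.5 and 12.4. CD4 T cell and Treg genes summed to 80.8 and 97.2 and 103 and 94.04 CPM, and stromal and endothelial genes to 232 and 219 and 155 and 158, of which Pecam1, also made by T cells, was 212 and 217 and 154 and 155. Of the CD8 T cell identity genes 14 of 18 were above 0 (median 0.18). Cd8b1 measured 884 and 1114 CPM with EnPGC-1 and 715 and 663 CPM with Ctrl PIP (0.54 ± 0.24), and Thy1 578 and 684 CPM with EnPGC-1 and 757 and 779 CPM with Ctrl PIP (-0.28 ± 0.22). The part of these cell types in the gene groups above was not tested.

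In the unfolded protein response and heat shock list 20 of 26 were below 0 (median -0.41; -0.66 and -0.64 for EnPGC-1 replicate 1, -0.21 and -0.11 for replicate 2; -0.15 without EnPGC-1 replicate 1), with 6 lower at an unadjusted p under 0.05 (2.77% of all genes). The chaperone gene Hsp90aa1 measured 401 and 442 CPM with EnPGC-1 and 795 and 882 CPM with Ctrl PIP (-0.99 ± 0.34), Hsph1 76.9 and 56.4 CPM with EnPGC-1 and 107 and 146 CPM with Ctrl PIP (-0.92 ± 0.26) and the secretory pathway factor Xbp1 36.2 and 41.02 CPM with EnPGC-1 and 59.9 and 60.6 CPM with Ctrl PIP (-0.64 ± 0.23). Antioxidant genes had 16 of 26 below 0 (median -0.20); Txnrd1, the thioredoxin reductase, was at -0.89 ± 0.27 and Gsr, the glutathione reductase, at -0.69 ± 0.22. Targets of ATF4, the factor of the integrated stress response, had a median of -0.16. It was -0.66 and -0.44 for EnPGC-1 replicate 1 and -0.11 and 0.19 for replicate 2. Without EnPGC-1 replicate 1 the median was 0.03, with 10 of 20 below 0, and without Ctrl PIP replicate 1 it was 0.06. The serine synthesis genes Phgdh and Psat1 were at -0.996 ± 0.42 and -0.80 ± 0.35. Amino acid transporters other than Slc7a5 included Slc38a2 at 151 and 141 CPM with EnPGC-1 and 136 and 142 CPM with Ctrl PIP, with an interval of -0.35 to 0.48. Of the p53 targets 20 of 27 were above 0 (median 0.18). Gadd45a measured 5.90 and 4.51 CPM with EnPGC-1 and 3.001 and 2.37 CPM with Ctrl PIP (0.95 ± 0.32), while Trp53 itself was at -0.52 ± 0.24. Apoptosis regulators had a median of 0.03. The survival gene Bcl2l1 measured 23.1 and 40.5 CPM with EnPGC-1 and 55.3 and 66.3 CPM with Ctrl PIP (-0.93 ± 0.34), and Birc2, an inhibitor of apoptosis, 125 and 129 CPM with EnPGC-1 and 93.6 and 87.5 CPM with Ctrl PIP (0.49 ± 0.20).

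Interferon-stimulated genes were above 0 in 22 of 29 (median 0.24; 0.26 and 0.64 for EnPGC-1 replicate 1, -0.27 and 0.34 for replicate 2), but their median was -0.09 without EnPGC-1 replicate 1. Irf9, a transcription factor of interferon signalling, measured 142 and 132 CPM with EnPGC-1 and 99.7 and 83.6 CPM with Ctrl PIP (0.58 ± 0.25). Among acetyltransferases and bromodomain proteins, which had a median of 0.16, the acetyltransferase genes Crebbp and Ep300 measured 149 and 60.01 CPM with EnPGC-1 and 61.2 and 75.5 CPM with Ctrl PIP, and 216 and 77.9 CPM with EnPGC-1 and 81.5 and 93.8 CPM with Ctrl PIP. Of these 4 libraries EnPGC-1 replicate 1 was the highest in both genes, and without it their log2 fold changes were -0.19 and -0.17. DMSO replicate 1 (142 and 211 CPM for Crebbp and Ep300) was near it, and DMSO replicate 2 (38.6 and 51.2 CPM) was below Ctrl PIP. Atad2, a bromodomain ATPase of proliferating cells, measured 106 and 120.3 CPM with EnPGC-1 and 153 and 177 CPM with Ctrl PIP (-0.54 ± 0.22). Histone deacetylases and sirtuins had a median of 0.12.

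For the genes measured most tightly, the intervals bound how far the compounds could differ. The 95% interval of the log2 fold change was -0.27 to 0.49 for Casp8, the initiator caspase, -0.25 to 0.53 for Ddb2, a DNA damage sensor, -0.43 to 0.35 for Brd7, a bromodomain reader, and -0.47 to 0.37 for Sirt6, a nuclear deacetylase. For Cd5, a T cell surface receptor, it was -0.56 to 0.35. These genes did not differ detectably, and the intervals leave room for differences up to about those bounds. Both compounds were compared as 1 pair, with no dose stated for either.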

How the data were processed

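Gene expression was measured by RNA-seq of poly(A) libraries, stranded by the TruSeq kit, in 8 libraries of activated mouse CD8+ T cells, per the labels' protocols, and 4 of them form the comparison described here. The authors deposited whole-number counts per gene under Entrez IDs for 45777 genes, 1 column per library and 0 columns of other samples. HISAT2, StringTie, DESeq2 and the build mm10 are named, without versions or roles, per the submitters' processing notes. The counter, annotation, strand setting and filters were not stated in the labels, so overlapping genes and near-identical copies may share counts. A deposited table of regularized log2 values was not used, because its header names stand 1 column to the left of their values.

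Counts were tested with edgeR 4.0.16 (R 4.3.3) by the quasi-likelihood test, robust, with TMM scaling and a group-wise filterByExpr filter, as a model of group means on all 8 libraries without covariates. The fit held 16750 genes and had 4 residual degrees of freedom. Tests were two-sided with Benjamini-Hochberg adjustment at 0.05. Levels are CPM on TMM library sizes, and log2 CPM of single libraries used a prior count of 2. Total counts were 38890043 to 55491261 per library, and intervals cover the spread between libraries as modelled. Symbols, positions and promoters came from RefSeq tables on GRCm38.p6, matching 99.8% of IDs, and transcript length and GC content from GENCODE mouse release M21, known for 92.2% of genes tested. The fit was tested on simulated data.

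The members and the 42 gene lists were chosen with earlier results of these data known, so lists were described by counts and medians and not tested. Named genes included a fixed set (Ppargc1a, Ppargc1b, Cpt1a, Crebbp, Ep300, Cd8a, Cd3e). Up to 12 per direction were taken by p and 8 by fold change, with at least 5 CPM and groups not overlapping. Each list gave up to 4 members with the smallest p plus 1 in the other direction, under the same conditions on level and overlap. Up to 8 per direction called by another test were added. The last were the most tightly measured members of lists near the median of all genes. Genes without a standard symbol were counted and not named, and some genes that the rule chose are not reported here. Alternatives were DESeq2 1.42.0, limma 3.58.1, DESeq2 size factors, no filter, the replicate number as a block, the 4 libraries alone, offsets for length and GC content (mgcv 1.9.3) and each library left out; the block with exchanged Ctrl PIP numbers and the list counts without EnPGC-1 replicate 1 were added after seeing the data.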

Additional observations from a re-analysis of the deposited data

How the results depend on the processing

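With 2 libraries per group, only DESeq2 made calls at an adjusted p under 0.05 (13 genes higher, 36 lower); edgeR and limma under each other setting, and edgeR with each library left out, made 0. Where leaving out a library left a group with 1 sample, that sample was assumed to vary like the other groups. Genes higher at an unadjusted p under 0.05, 286 in the fit reported, numbered 611 by DESeq2, 606 with length and GC offsets and 544 with the replicate block and the Ctrl PIP numbers exchanged. Genes lower, 464 in the fit reported, numbered 987 with that exchanged block. With 1 library left out, genes higher numbered 842 and 872 without DMSO replicate 1 and 2, 583 without EnPGC-1 replicate 2, 156 and 87 without Ctrl PIP replicate 1 and 2, and 129 and 134 without SGC-CBP30 replicate 1 and 2. Genes lower numbered 1084 and 1072, 881, 177 and 109, and 261 and 263 in the same order. The cause of these moves was not tested. With the replicate number as a block 371 genes were higher and 679 lower. The labels name no shared batch for a number, and replicate differences correlated at 0.666 between EnPGC-1 and DMSO, 0.231 and 0.227 between these and SGC-CBP30, and -0.226, -0.252 and -0.039 between Ctrl PIP and EnPGC-1, DMSO and SGC-CBP30. Since not every pair was over 0.1, the block was not used for the results.

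Acadm turned sign with DESeq2 size factors (0.00663), DESeq2 (0.00670), no filter (0.00328) and the offsets (0.154). The offsets also turned Brd7 (0.00565), Ccl5 (0.0466), Sirt6 (0.127) and Slc38a2 (-0.0325), and limma turned Cd3e (-0.00227). With 1 library left out, log2 fold changes that turned sign ranged from -0.0458 to 0.0239 for Acadm, -0.202 to 0.186 for Cd3e, -0.272 to 0.0323 for Cd5, -0.193 to 1.12 for Crebbp, -0.174 to 1.296 for Ep300, -0.103 to 0.0468 for Nrf1 and -0.457 to 1.24 for Ppargc1b; Crebbp, Ep300 and Ppargc1b were negative only without EnPGC-1 replicate 1. Of 42 lists, 27 kept the sign of their median under every alternative.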
